A study of Homo sapiens with 8 samples.

Results

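The genes described here encode the enzymes of cholesterol and fatty acid synthesis, the proteins that control them, and a few genes of sterol export and uptake, measured in HL-60 cells. They were taken from the deposited table by gene symbol from a list of 34. A mean of at least 10 normalised reads over the 8 libraries was asked for, which 33 of the 34 met. Those 33 are among 17534 tested genes of 60240 in the table. FADS2 lies just inside that limit (mean 15.0) and ABCG1 just outside it (mean 8.99). Of the 33, 25 are synthesis enzymes: 7 of the mevalonate arm, 3 of the squalene arm, 8 from lanosterol to cholesterol and 7 of fatty acid synthesis. The others are 6 genes of sterol sensing and transfer, the exporter gene ABCA1, and MYLIP, whose product marks lipoprotein receptors for degradation.

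HL-60 is a human promyelocytic leukaemia cell line, given as WT in the labels. It was grown in 4 groups of 2 libraries: decitabine with RG3039 (the combination), decitabine alone, RG3039 alone, and the solvent DMSO, which served as the control. Decitabine, a deoxycytidine analogue that inhibits DNA methyltransferases, was given at 100 nM on each of days 0, 1 and 2. RG3039, an inhibitor of the decapping scavenger enzyme DcpS, was given at 2 µM on day 0 only. Duplicate wells were seeded at 100000 cells per mL, and polyadenylated RNA was taken at 72 h for 3′ end sequencing. The design compares the 4 treatments.

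Cells make cholesterol from acetyl-CoA by way of mevalonate, squalene and lanosterol, and fatty acids from the same acetyl-CoA by way of malonyl-CoA. Transcription of both sets of enzymes is driven by the SREBP proteins, the products of SREBF1 and SREBF2. When membranes lack sterol, SCAP escorts these proteins to the Golgi to be cut into active factors, and when sterol is plentiful INSIG proteins hold them in the endoplasmic reticulum. Oxysterols made from surplus cholesterol instead activate the LXR receptors, which raise the exporter genes ABCA1 and ABCG1 and the ubiquitin ligase gene MYLIP. Sterol-regulated promoters usually carry a CCAAT box, bound by NF-Y, close to the SREBP site.

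Promoters are shown for 6 genes, 1 for each class, as those with the smallest p against DMSO among the promoters at hand. Each line gives the 250 bases before the annotated start, 5′ to 3′ on the strand of the gene, from RefSeq on GRCh38.p14. Capitals mark CCAAT or its reverse complement ATTGG, and the palindrome CACGTG, an E-box that SREBP and other helix-loop-helix factors can bind. The windows are IDI1 at chr10:1048887-1049136, minus strand, LSS at chr21:46228775-46229024, minus strand, DHCR7 at chr11:71448394-71448643, minus strand, INSIG1 at chr7:155297628-155297877, plus strand, SCD at chr10:100346983-100347232, plus strand, and ABCA1 at chr9:104928156-104928405, minus strand.
IDI1: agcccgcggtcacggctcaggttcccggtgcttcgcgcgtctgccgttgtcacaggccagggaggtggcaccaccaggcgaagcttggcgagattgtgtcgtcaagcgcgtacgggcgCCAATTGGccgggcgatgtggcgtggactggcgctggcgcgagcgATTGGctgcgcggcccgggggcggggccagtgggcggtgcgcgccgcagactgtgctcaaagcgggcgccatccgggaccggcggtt
LSS: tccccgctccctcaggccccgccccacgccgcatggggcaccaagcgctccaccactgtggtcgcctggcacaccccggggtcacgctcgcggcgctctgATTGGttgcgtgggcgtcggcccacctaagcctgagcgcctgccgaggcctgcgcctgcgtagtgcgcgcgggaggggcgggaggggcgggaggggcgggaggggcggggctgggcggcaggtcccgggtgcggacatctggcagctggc
DHCR7: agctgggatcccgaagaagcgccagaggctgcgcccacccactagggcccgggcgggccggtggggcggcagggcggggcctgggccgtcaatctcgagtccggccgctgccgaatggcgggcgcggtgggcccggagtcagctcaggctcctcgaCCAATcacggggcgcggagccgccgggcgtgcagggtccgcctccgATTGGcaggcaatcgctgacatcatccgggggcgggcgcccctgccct
INSIG1: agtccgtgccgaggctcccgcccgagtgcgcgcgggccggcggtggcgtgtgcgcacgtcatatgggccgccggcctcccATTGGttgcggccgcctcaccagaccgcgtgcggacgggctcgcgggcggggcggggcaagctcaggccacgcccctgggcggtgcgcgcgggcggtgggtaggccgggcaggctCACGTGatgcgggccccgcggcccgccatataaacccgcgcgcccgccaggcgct
SCD: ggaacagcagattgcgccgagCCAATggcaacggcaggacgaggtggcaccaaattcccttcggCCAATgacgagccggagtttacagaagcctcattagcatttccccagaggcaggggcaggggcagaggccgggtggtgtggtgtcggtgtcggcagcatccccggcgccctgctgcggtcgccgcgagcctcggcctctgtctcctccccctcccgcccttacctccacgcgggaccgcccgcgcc
ABCA1: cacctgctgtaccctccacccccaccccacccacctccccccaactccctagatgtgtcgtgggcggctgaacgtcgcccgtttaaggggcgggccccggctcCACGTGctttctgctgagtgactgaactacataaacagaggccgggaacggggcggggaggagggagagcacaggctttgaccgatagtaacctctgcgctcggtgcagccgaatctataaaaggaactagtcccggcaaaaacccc
IDI1 has 3 CCAAT matches, of which 2 overlap in CCAATTGG. DHCR7 and SCD have 2 each, LSS and INSIG1 have 1 each, and ABCA1 has 0. INSIG1 and ABCA1 each hold 1 CACGTG. Promoter windows of 300 bases (250 before the start and 50 after it) were at hand for 29 of the 33 genes and not for ACAT2, FDFT1, SQLE and FASN. All letters were searched on both strands. CCAAT was in 19 of these 29 windows (65.5%), against 37.1% of the 11081 windows of tested genes. CACGTG was in 5 of 29 (17.2%, against 10.1%) and the GC box GGGCGG in 27 of 29 (93.1%, against 67.1%). The SREBP-like letters TCACNCCAC were in 1 of 29, that of SREBF2, against 1.06% of tested genes. A match is a description of letters in these windows, and says nothing of binding.

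Normalised totals were 27878600 to 32309900 per library, from an estimated 20711800 to 40948100 reads. Across all genes, 2 libraries of one group correlated at 0.952 to 0.957, and libraries of different groups at 0.890 to 0.954. Of 8 promyelocyte genes, all were tested, and MPO had 69218 and 74639 under the combination, 121481 and 158077 under decitabine, 80167 and 92757 under RG3039 and 130999 and 165580 under DMSO. The defining genes of B cells (MS4A1), epithelium (KRT19) and endothelium (CDH5) were at 0 in all 8 libraries. Other genes of these types were above 0 in all 8: CD79A of B cells had 117 and 108 under the combination, 91.7 and 79.0 under decitabine, 20.2 and 74.8 under RG3039 and 25.7 and 25.7 under DMSO, and the epithelial EPCAM had 24.1 and 13.3 under the combination, 40.5 and 24.9 under decitabine, 9.41 and 18.3 under RG3039 and 6.05 and 6.04 under DMSO. CD79A was higher in both combination libraries than in both DMSO libraries, as was EPCAM. Protein-coding loci overlap 8 of the 34 genes, and loci of any kind overlap 23. The 8 are ACAT2 (SOD2 and TCP1), MVK (MMAB), TM7SF2 (VPS51), SREBF1 (RAI1), ACACA (C17orf78), CYP51A1, and FADS1 and FADS2, which overlap each other. Whether reads were counted by strand is not stated, so the levels of overlapped genes are uncertain. Differences below are log2 fold changes of the normalised value plus 1 with the standard error from limma, fitted over all 17534 genes. A gene was called when its Benjamini-Hochberg adjusted p was under 0.05. The labels give duplicate wells and no separate cultures, so p-values measure only the spread between wells.

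**Figure D1:**
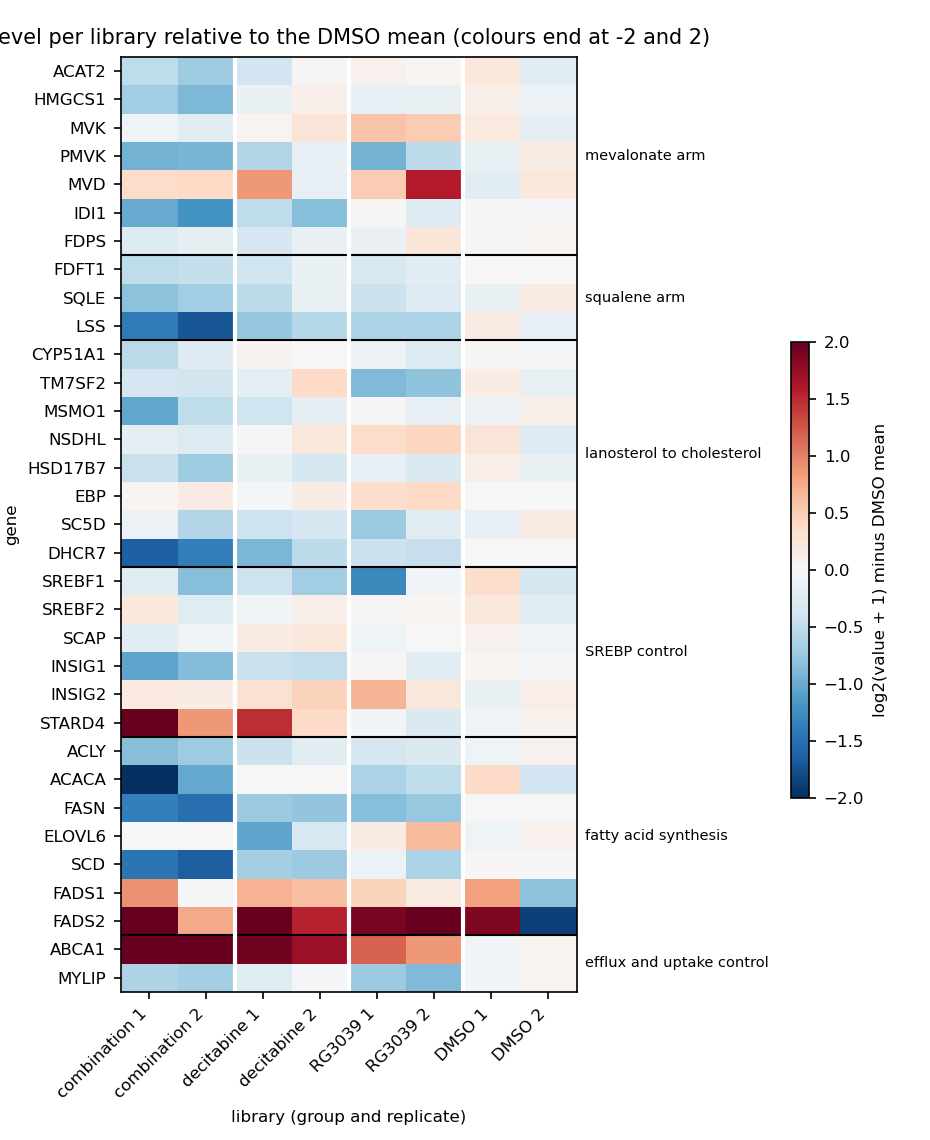
Colours give log2(normalised value + 1) of each of the 33 genes (rows, by class) in each of the 8 libraries (columns), minus the mean of the 2 DMSO libraries, with the scale ending at -2 and 2. Both combination libraries are blue for LSS, DHCR7, ACACA, FASN and SCD, and at the red end of the scale for ABCA1.

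With the combination, many of the synthesis genes fell and the exporter ABCA1 rose. Against DMSO, 17 of the 33 genes were called, 15 lower and 2 higher, while 24.1% of all tested genes were called (12.7% lower and 11.4% higher). Of the 25 synthesis enzymes 13 fell and 0 rose. At an unadjusted p under 0.05 in limma 15 were lower and 0 higher. Over all 17534 tested genes 6356 had such a p, in either direction. The median of the 25 enzymes was -0.58, against 0.04 over all tested genes. Both combination libraries lay below both DMSO libraries for 19 of the 33 genes (30.6% of all tested genes) and above them for 5 (32.2% of all). In bulk RNA, fewer cells of one kind and less RNA per cell cannot be told apart. The calls of IDI1, LSS, DHCR7, INSIG1, FASN, SCD and ABCA1 were kept in all 18 alternative settings, the omission of each library included.

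Beside these genes, markers of myeloid maturation moved with the treatments. The counts in this paragraph are for the combination against DMSO, where 11.4% of all tested genes were called higher and 12.7% lower. Of 12 maturation markers tested, 10 were called higher and 1 lower. Their summed normalised level was 160684 and 180152 under the combination, 94342 and 97669.5 under decitabine, 133946 and 128092 under RG3039 and 71154 and 81052 under DMSO. MMP9, a granule protease of mature neutrophils, had 941 and 963 under the combination, 76.9 and 102 under decitabine, 117 and 121 under RG3039 and 10.6 and 7.55 under DMSO. FCGR1A, the 1 maturation marker called lower, had 503 and 515 under the combination and 1777 and 1982 under decitabine. It had 474 and 405 under RG3039 and 970 and 1301 under DMSO. Of 8 promyelocyte markers 1 was higher and 3 were lower, with a summed level of 194386 and 227364 under the combination, 301089 and 339620 under decitabine, 256687 and 258755 under RG3039 and 268487 and 326615 under DMSO. Of 10 cycling markers 2 were higher and 3 lower, with a sum of 83762 and 91379 under the combination, 95325 and 80124 under decitabine, 107645 and 91185 under RG3039 and 94499 and 129160 under DMSO. Of 5 tested markers of other cell types 3 were higher, at sums of 295 and 376 under the combination, 202 and 189 under decitabine, 79.3 and 120.1 under RG3039 and 117 and 76.5 under DMSO. Among those called higher were CD3E (4.32 ± 0.85, limma adjusted p = 0.00602) and CD3D (4.27 ± 0.86, adjusted p = 0.00659). The part of these markers in the sterol and fatty acid results was not tested.

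In the mevalonate arm, 4 of 7 genes fell with the combination. HMGCS1, which makes HMG-CoA and commits acetyl units to the pathway, had normalised counts of 1472 and 1286 under the combination, 2176 and 2555 under decitabine, 2127 and 2161 under RG3039 and 2597 and 2195 under DMSO. Both combination libraries lie below all 6 others, and RG3039 lies just below decitabine and DMSO, which overlap. Its change against DMSO was -0.79 ± 0.16, limma adjusted p = 0.00673. HMGCS1 lost its call without combination replicate 2 (adjusted p 0.0575), over a range of 0.00522 to 0.0575 in the 18 alternative settings. IDI1, the isomerase that sets up the isoprene units for joining, had 347 and 303 under the combination, 487 and 385 under decitabine, 705 and 584 under RG3039 and 703 and 688 under DMSO. The combination lies below every other library and decitabine below RG3039 and DMSO, which overlap. IDI1 changed by -1.10 ± 0.21, adjusted p = 0.00487, to 46.7% of the DMSO mean.

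PMVK, the phosphomevalonate kinase, had 360.4 and 364 under the combination, 467 and 623 under decitabine, 360.1 and 485 under RG3039 and 627 and 776 under DMSO. The combination lies below decitabine and DMSO and overlaps RG3039. Its change was -0.94 ± 0.24, limma adjusted p = 0.0175. PMVK lost its call without combination replicate 1 (adjusted p 0.0870), combination replicate 2 (0.0755) and DMSO replicate 2 (0.102), and also with no mean-variance trend, over a range of 0.00802 to 0.102 in the 18 alternative settings. ACAT2, the cytosolic thiolase that joins acetyl-CoA units, had 2370.4 and 2070.2 under the combination, 2604 and 3458 under decitabine, 3594 and 3471 under RG3039 and 3924 and 2922 under DMSO. Again both combination libraries were the lowest of the 8, while DMSO overlaps both single drugs. ACAT2 changed by -0.61 ± 0.19, adjusted p = 0.0442. ACAT2 lost its call without combination replicate 1 (adjusted p 0.103), combination replicate 2 (0.203), RG3039 replicate 1 (0.0671), RG3039 replicate 2 (0.0665) and DMSO replicate 1 (0.213), and also with quantile normalisation, no filter on low values, no mean-variance trend and only the compared groups in the fit, over a range of 0.0302 to 0.213 in the 18 alternative settings. Without DMSO replicate 1 the log2 fold change of ACAT2 was -0.40. The other 3 genes were not called: mevalonate kinase MVK (-0.14 ± 0.20), the decarboxylase MVD (0.38 ± 0.41) and farnesyl diphosphate synthase FDPS (-0.23 ± 0.16). MVD had 318 and 671 under RG3039, a wide gap between wells.

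All 3 genes of the squalene arm fell with the combination. LSS, the cyclase that folds squalene epoxide into lanosterol, had 147 and 118 under the combination, 229.95 and 264 under decitabine, 253 and 254 under RG3039 and 438 and 351 under DMSO. The combination lies lowest, both single drugs lie between, overlapping each other, and DMSO lies highest. Its change was -1.56 ± 0.25, limma adjusted p = 0.00195, to 33.7% of the DMSO mean. SQLE, the squalene epoxidase and a rate-limiting step of the pathway, had 1523 and 1672 under the combination, 1870.2 and 2454 under decitabine, 2001 and 2253 under RG3039 and 2420.4 and 2998 under DMSO. The combination lies below all other libraries and RG3039 below DMSO, while decitabine overlaps both. SQLE changed by -0.76 ± 0.18, adjusted p = 0.0151. SQLE lost its call without combination replicate 1 (adjusted p 0.102), combination replicate 2 (0.0545) and DMSO replicate 2 (0.0906), and also with no mean-variance trend, over a range of 0.00424 to 0.102 in the 18 alternative settings. FDFT1, the squalene synthase, had 3477 and 3536 under the combination, 3739 and 4503 under decitabine, 3955 and 4199 under RG3039 and 4884 and 4965 under DMSO. Its combination libraries were the lowest and its DMSO libraries the highest. FDFT1 changed by -0.49 ± 0.14, adjusted p = 0.0302. FDFT1 lost its call without combination replicate 1 (adjusted p 0.145), combination replicate 2 (0.115), RG3039 replicate 1 (0.0501), RG3039 replicate 2 (0.0502), DMSO replicate 1 (0.0705) and DMSO replicate 2 (0.0923), and also with quantile normalisation, no filter on low values and no mean-variance trend, over a range of 0.0188 to 0.145 in the 18 alternative settings.

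From lanosterol to cholesterol, 2 of 8 genes fell. DHCR7, the reductase that makes cholesterol from its dehydro precursor, had 567 and 673 under the combination, 934 and 1217 under decitabine, 1306 and 1269 under RG3039 and 1756 and 1756 under DMSO. The 4 groups do not overlap and run from the combination through decitabine and RG3039 to DMSO. Its change with the combination was -1.51 ± 0.18, limma adjusted p = 0.000499, to 35.3% of the DMSO mean. MSMO1, the monooxygenase that strips methyl groups from the ring, had 539 and 778 under the combination, 842 and 972 under decitabine, 1088 and 989 under RG3039 and 1022 and 1208 under DMSO. The combination lies below all other libraries, and RG3039 overlaps DMSO. MSMO1 changed by -0.78 ± 0.21, adjusted p = 0.0253. MSMO1 lost its call without combination replicate 1 (adjusted p 0.192) and DMSO replicate 2 (0.126), and also with no mean-variance trend and only the compared groups in the fit, over a range of 0.0161 to 0.192 in the 18 alternative settings. Its log2 fold change without combination replicate 1 was -0.51.

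The other 6 genes after lanosterol were not called. Their differences from DMSO with the combination were -0.40 ± 0.15 for CYP51A1, the lanosterol demethylase, -0.36 ± 0.28 for the sterol reductase TM7SF2, and -0.22 ± 0.20 for the dehydrogenase NSDHL. They were -0.58 ± 0.23 for the ketosterol reductase HSD17B7, 0.11 ± 0.14 for the isomerase EBP, and -0.35 ± 0.25 for the desaturase SC5D. EBP, at 2944 to 3966 normalised reads over the 8 libraries, lay at 108% of DMSO.

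In fatty acid synthesis, 4 of 7 genes fell with the combination. FASN, the synthase that builds palmitate, had 2079 and 1882 under the combination, 3244 and 3085 under decitabine, 2946 and 3158 under RG3039 and 5350.4 and 5337 under DMSO. Both combination libraries are the lowest and both DMSO libraries the highest, with the single drugs between and overlapping each other. Its change was -1.43 ± 0.13, limma adjusted p = 0.000157, to 37.1% of the DMSO mean. SCD, the desaturase that makes oleate from stearate, had 1544 and 1347 under the combination, 2649.5 and 2552 under decitabine, 3891 and 2738 under RG3039 and 4281 and 4183 under DMSO. Its groups do not overlap and run upward from the combination through decitabine and RG3039 to DMSO. SCD changed by -1.55 ± 0.18, adjusted p = 0.000409, to 34.2% of the DMSO mean.

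ACACA, the acetyl-CoA carboxylase that makes malonyl-CoA, had 291 and 700.2 under the combination, 1409.6 and 1407 under decitabine, 913 and 998 under RG3039 and 1853 and 1087 under DMSO. The combination lies lowest, but its 2 libraries differ from each other, as do those of DMSO, which overlap decitabine. Its change was -1.65 ± 0.37, limma adjusted p = 0.0111. ACACA lost its call without combination replicate 1 (adjusted p 0.0645) and DMSO replicate 1 (0.0731), and also with no mean-variance trend, over a range of 0.00393 to 0.0731 in the 18 alternative settings. Without combination replicate 1 its log2 fold change was -1.02. ACLY, the lyase that frees acetyl-CoA from citrate for both pathways, had 1619 and 1784 under the combination, 2152 and 2516 under decitabine, 2296 and 2375 under RG3039 and 2747 and 3076 under DMSO. The combination lies lowest and DMSO highest. ACLY changed by -0.77 ± 0.15, adjusted p = 0.00549. ACLY lost its call without combination replicate 1 (adjusted p 0.0530), over a range of 0.00284 to 0.0530 in the 18 alternative settings.

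The remaining genes of this arm handle chain length and multiple double bonds and were not called. ELOVL6, the elongase of saturated chains, had 565 and 573 under the combination and 538 and 601 under DMSO, a difference of 0.00 ± 0.27. FADS1 and FADS2, the desaturases of polyunsaturated fatty acids, differed from DMSO by 0.44 ± 0.48 and 2.16 ± 1.33. FADS2 had 42.2 and 5.18 under the combination, 17.9 and 9.63 under decitabine, 12.6 and 20.3 under RG3039 and 12.3 and 0 under DMSO, near the limit for testing.

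**Figure D2:**
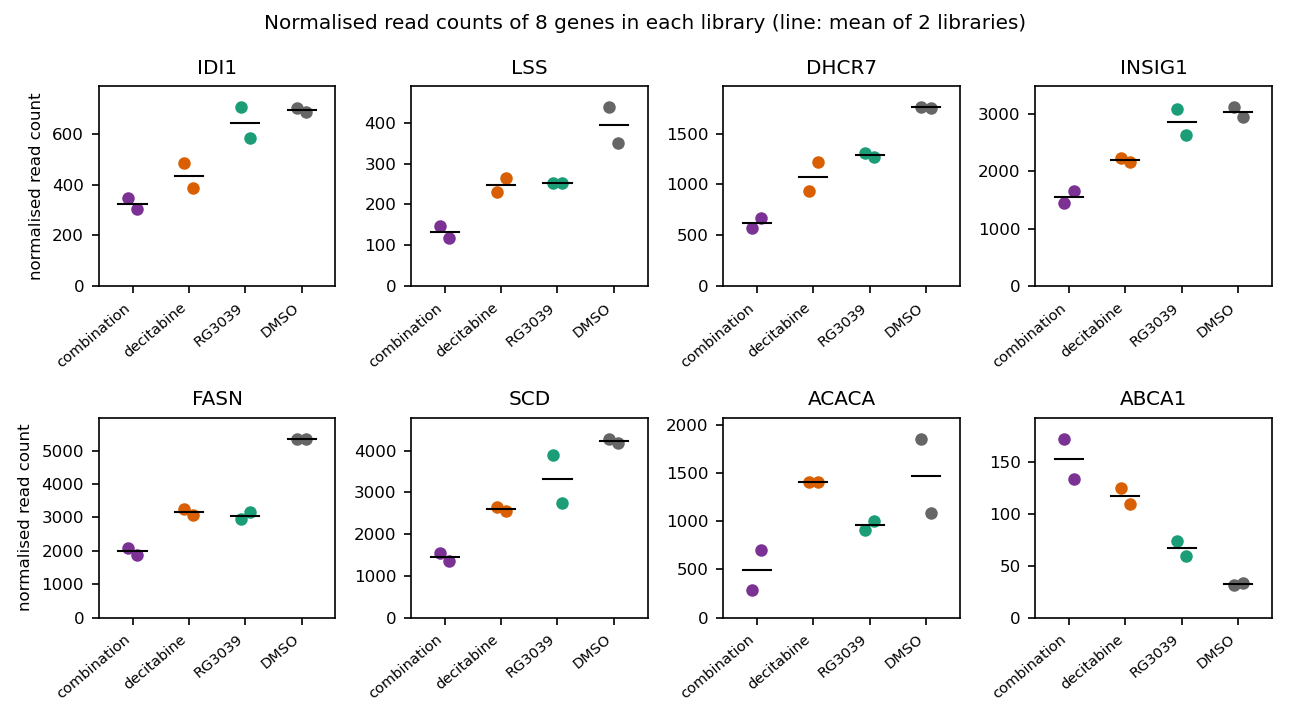
Normalised read counts of 8 genes (vertical axes from 0) in the 2 libraries of each group (points), with the mean of each group as a line. In all panels but ABCA1 the combination lies lowest, and in the ABCA1 panel it lies highest, with DMSO at the bottom.

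Of the 6 genes of sterol sensing and transfer, 1 fell and 1 rose with the combination. INSIG1, the sterol-dependent anchor that holds SCAP in the endoplasmic reticulum and is itself an SREBP target, had 1449.7 and 1654 under the combination, 2227 and 2155 under decitabine, 3076 and 2625 under RG3039 and 3109 and 2949.6 under DMSO. The combination lies lowest, decitabine next, and RG3039 and DMSO overlap. Its change was -0.97 ± 0.15, limma adjusted p = 0.00179. STARD4, a carrier that moves sterol between membranes, had 418 and 181 under the combination, 278 and 129.8 under decitabine, 95.3 and 80.6 under RG3039 and 94.5 and 104 under DMSO. Both groups given decitabine lie above RG3039 and DMSO, with wide gaps between wells. STARD4 changed by 1.47 ± 0.46, adjusted p = 0.0440. STARD4 lost its call without combination replicate 1 (adjusted p 0.306), RG3039 replicate 1 (0.0612), RG3039 replicate 2 (0.0595), DMSO replicate 1 (0.137) and DMSO replicate 2 (0.122), and also with quantile normalisation, no filter on low values, no mean-variance trend and only the compared groups in the fit, over a range of 0.0217 to 0.306 in the 18 alternative settings. The log2 fold change of STARD4 was 0.87 without combination replicate 1.

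The SREBP genes themselves and their escort were not called in any comparison. With the combination SREBF2, the factor for sterol genes, differed from DMSO by -0.02 ± 0.20 (95% interval -0.46 to 0.42). SREBF1, the factor for fatty acid genes, differed by -0.54 ± 0.45 (95% interval -1.56 to 0.47). SCAP differed by -0.15 ± 0.15 and INSIG2, the second INSIG gene, by 0.17 ± 0.28. SREBF1 was low, at 66.8 to 211 normalised reads, and its interval is the wider one.

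The efflux genes moved apart from each other. ABCA1, the exporter that loads cholesterol onto apolipoproteins, had 172 and 133 under the combination, 125 and 109 under decitabine, 73.9 and 59.7 under RG3039 and 31.0 and 33.2 under DMSO. The groups do not overlap and run down from the combination through decitabine and RG3039 to DMSO, the reverse of DHCR7 and SCD. Its change with the combination was 2.20 ± 0.35, limma adjusted p = 0.00192, to 476% of the DMSO mean. MYLIP had 322 and 308 under the combination, 419 and 482 under decitabine, 300.2 and 269.5 under RG3039 and 475 and 517 under DMSO. Both groups given RG3039 lie below decitabine and DMSO. MYLIP changed by -0.65 ± 0.20, adjusted p = 0.0430. MYLIP lost its call without each of the 8 libraries (adjusted p 0.0502 to 0.160), and also with no filter on low values, no mean-variance trend and only the compared groups in the fit, over a range of 0.0323 to 0.160 in the 18 alternative settings. ABCG1, the second exporter, had 16.6 and 10.5 under the combination, 18.4 and 4.53 under decitabine, 11.2 and 0 under RG3039 and 0.825 and 9.87 under DMSO and was not tested.

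Set against each other as mean log2 levels, the 25 synthesis enzymes lay at 9.46 and 9.34 under the combination, 9.74 and 9.83 under decitabine, 9.82 and 9.93 under RG3039 and 10.06 and 9.79 under DMSO. ABCA1 and MYLIP together lay at 7.89 and 7.67 under the combination, 7.85 and 7.85 under decitabine, 7.23 and 7.001 under RG3039 and 6.95 and 7.06 under DMSO. The synthesis mean was lowest in the combination libraries, and the mean of ABCA1 and MYLIP was lower in RG3039 and DMSO than in the groups given decitabine. The change of synthesis minus that of efflux, on this log2 scale, was -1.30 for the combination, -0.98 for decitabine and -0.16 for RG3039 against DMSO. With decitabine the synthesis means overlapped those of DMSO, while ABCA1 changed by 1.83 and MYLIP by -0.14. The RG3039 value turned sign when 1 library was left out, to 0.0061 without RG3039 replicate 1 and 0.027 without DMSO replicate 1. Leaving out either of the other libraries gave -0.33 (RG3039 replicate 2) and -0.35 (DMSO replicate 2). The synthesis mean includes FADS2, near the limit for testing, which had 12.3 and 0 under DMSO. With RG3039 FADS2 changed by 2.22 ± 1.33, and no value without this gene was computed. No test was made of this difference. ABCA1 rose and MYLIP fell with the combination, so their mean stands for neither gene.

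**Figure D3:**
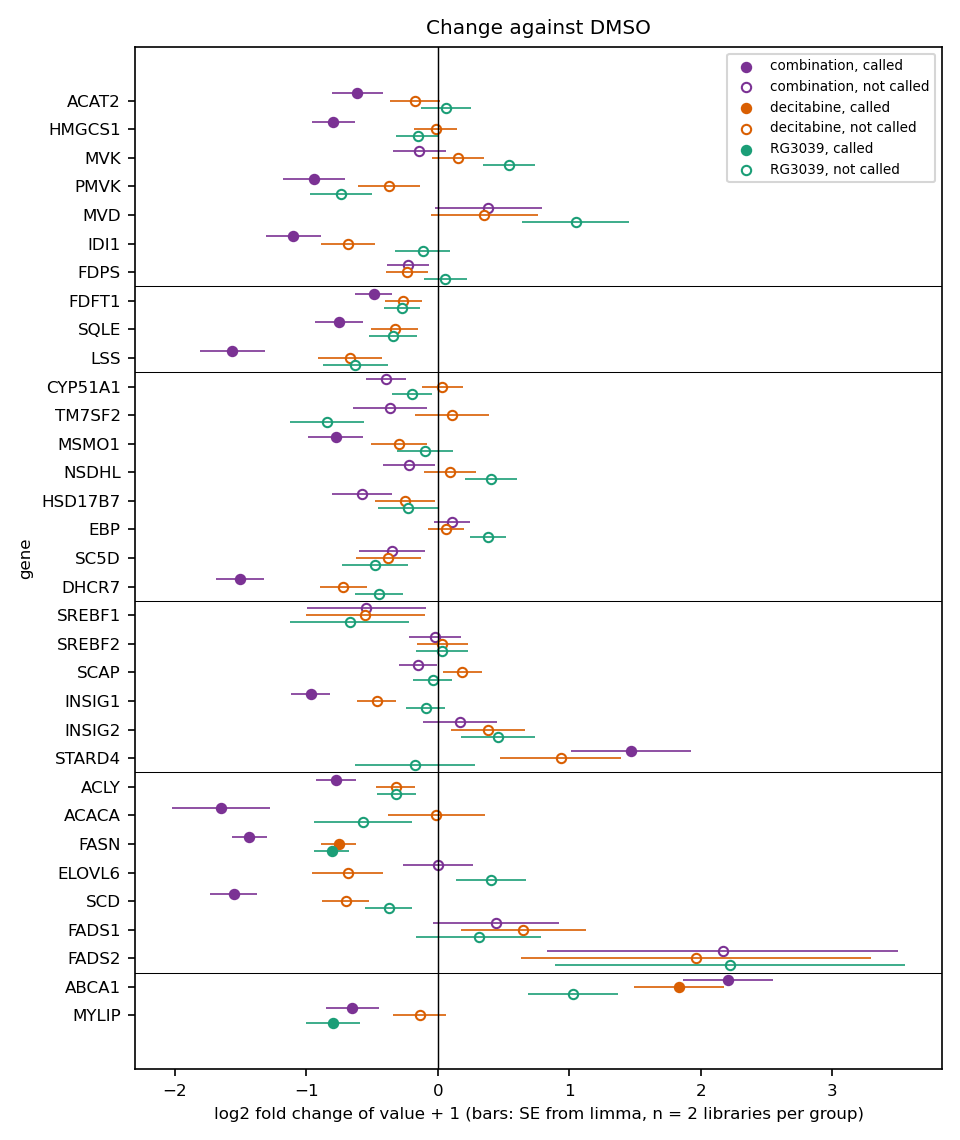
Log2 fold change of value + 1 against DMSO (horizontal axis) for each of the 33 genes, with the combination, decitabine and RG3039 in separate colours, filled where called and with bars for the limma standard error (n = 2 libraries per group). Filled points of the combination lie left of 0 for 15 genes and right of it for STARD4 and ABCA1, and the single drugs have 2 filled points each.

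Alone, each drug changed 2 of the 33 genes. With decitabine against DMSO 1 fell and 1 rose, where 2.14% of all tested genes were called (1.74% higher and 0.405% lower). Both decitabine libraries lay below both DMSO libraries for 15 genes (23.1% of all tested genes) and above them for 4 (23.7% of all). FASN changed by -0.76 ± 0.13, limma adjusted p = 0.0237. FASN lost its call without combination replicate 1 (adjusted p 0.0572), combination replicate 2 (0.0585), decitabine replicate 1 (0.0984), decitabine replicate 2 (0.124) and DMSO replicate 2 (0.0917), and also with quantile normalisation, no mean-variance trend and only the compared groups in the fit, over a range of 0.0199 to 0.129 in the 18 alternative settings. ABCA1 changed by 1.83 ± 0.35, adjusted p = 0.0303. ABCA1 lost its call without combination replicate 1 (adjusted p 0.0653), combination replicate 2 (0.0649), decitabine replicate 1 (0.160), decitabine replicate 2 (0.124), DMSO replicate 1 (0.0645) and DMSO replicate 2 (0.111), and also with quantile normalisation, no filter on low values and only the compared groups in the fit, over a range of 0.0253 to 0.160 in the 18 alternative settings. At an unadjusted p under 0.05 in limma, 7 genes were lower and 1 was higher, against 3130 of all 17534 tested genes in either direction. DHCR7 (-0.72 ± 0.18, adjusted p = 0.0764) and SCD (-0.70 ± 0.18, adjusted p = 0.0794) were not called, though both decitabine libraries lay below both DMSO libraries.

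With RG3039 against DMSO 2 genes fell, where 8.12% of all tested genes were called (3.59% lower and 4.53% higher), so the share among these genes was near the background. Both RG3039 libraries lay below both DMSO libraries for 15 genes (26.1% of all tested genes) and above them for 8 (25.8% of all). FASN changed by -0.81 ± 0.13, limma adjusted p = 0.00662. FASN lost its call without RG3039 replicate 1 (adjusted p 0.0601), and also with no mean-variance trend, over a range of 0.00549 to 0.0601 in the 18 alternative settings. MYLIP changed by -0.80 ± 0.20, adjusted p = 0.0420. MYLIP lost its call without each of the 8 libraries (adjusted p 0.0535 to 0.193), and also with quantile normalisation, no filter on low values, no mean-variance trend and only the compared groups in the fit, over a range of 0.0309 to 0.193 in the 18 alternative settings. None of the 33 was called higher. At an unadjusted p under 0.05 in limma, 4 were higher and 6 lower. Over all 17534 tested genes 3999 had such a p, in either direction. ABCA1 (1.03 ± 0.35, adjusted p = 0.108) was not called, although both RG3039 libraries lay above both DMSO libraries. MVK, MVD and EBP had positive values (0.54 ± 0.20, 1.05 ± 0.41 and 0.38 ± 0.14), none of them called. With ABCA1 they are the 4 genes higher at an unadjusted p under 0.05. NSDHL was also above 0 (0.40 ± 0.20), at an unadjusted limma p of 0.0712.

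Against decitabine alone, 5 of the 33 genes were called lower with the combination, where 7.33% of all tested genes were called (3.39% lower and 3.94% higher). Both combination libraries lay below both decitabine libraries for 22 genes (27.3% of all tested genes) and above them for 2 (25.7% of all). All 5 called genes are synthesis enzymes. At an unadjusted p under 0.05 in limma, 15 of the 33 were lower and 1 was higher. Over all 17534 tested genes 4018 had such a p, in either direction. HMGCS1 changed by -0.78 ± 0.16, limma adjusted p = 0.0209. HMGCS1 lost its call without combination replicate 1 (adjusted p 0.0825), combination replicate 2 (0.143), decitabine replicate 1 (0.0565) and decitabine replicate 2 (0.101), and also with no mean-variance trend, over a range of 0.0165 to 0.143 in the 18 alternative settings. The combination libraries of HMGCS1 and of the other 4 genes lay below both decitabine libraries. SCD changed by -0.85 ± 0.18, adjusted p = 0.0227. SCD lost its call without combination replicate 1 (adjusted p 0.0903), combination replicate 2 (0.146), decitabine replicate 1 (0.113) and decitabine replicate 2 (0.0812), and also with no mean-variance trend, over a range of 0.0119 to 0.146 in the 18 alternative settings. FASN changed by -0.68 ± 0.13, adjusted p = 0.0173. FASN lost its call without combination replicate 1 (adjusted p 0.0813), combination replicate 2 (0.130), decitabine replicate 1 (0.0884) and decitabine replicate 2 (0.0565), and also with no mean-variance trend, over a range of 0.0136 to 0.130 in the 18 alternative settings. Both are enzymes of fatty acid synthesis, as is ACACA, while DHCR7 ends the sterol pathway. ACACA changed by -1.64 ± 0.37, adjusted p = 0.0295. ACACA lost its call without combination replicate 1 (adjusted p 0.152), decitabine replicate 1 (0.136) and decitabine replicate 2 (0.114), and also with no filter on low values and no mean-variance trend, over a range of 0.0172 to 0.152 in the 18 alternative settings. Against decitabine its log2 fold change was -1.01 without combination replicate 1. DHCR7 changed by -0.79 ± 0.18, adjusted p = 0.0309. DHCR7 lost its call without combination replicate 1 (adjusted p 0.199), combination replicate 2 (0.0901), decitabine replicate 2 (0.141), RG3039 replicate 1 (0.0526) and RG3039 replicate 2 (0.0516), and also with no mean-variance trend and only the compared groups in the fit, over a range of 0.0218 to 0.199 in the 18 alternative settings.

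Against RG3039 alone, 5 genes were again called lower with the combination, where 2.28% of all tested genes were called (0.787% lower and 1.49% higher). Both combination libraries lay below both RG3039 libraries for 21 genes (25% of all tested genes) and above them for 4 (26.2% of all). SCD changed by -1.18 ± 0.18, limma adjusted p = 0.0143. SCD lost its call without combination replicate 1 (adjusted p 0.104), combination replicate 2 (0.117) and RG3039 replicate 1 (0.113), and also with no mean-variance trend, over a range of 0.00889 to 0.117 in the 18 alternative settings. INSIG1 changed by -0.88 ± 0.15, adjusted p = 0.0210. INSIG1 lost its call without combination replicate 1 (adjusted p 0.199), combination replicate 2 (0.101), RG3039 replicate 1 (0.183) and RG3039 replicate 2 (0.0525), and also with no mean-variance trend, over a range of 0.0161 to 0.199 in the 18 alternative settings. These 2 genes, a desaturase and the sterol-dependent anchor, were lower in both combination libraries than in both RG3039 libraries. DHCR7 changed by -1.06 ± 0.18, adjusted p = 0.0216. DHCR7 lost its call without combination replicate 1 (adjusted p 0.197), combination replicate 2 (0.0950), RG3039 replicate 1 (0.167) and RG3039 replicate 2 (0.0725), and also with no mean-variance trend, over a range of 0.0146 to 0.197 in the 18 alternative settings. IDI1 changed by -0.98 ± 0.21, adjusted p = 0.0452. IDI1 lost its call without each of the 8 libraries (adjusted p 0.0549 to 0.283), and also with no filter on low values, no mean-variance trend and only the compared groups in the fit, over a range of 0.0277 to 0.283 in the 18 alternative settings. FASN changed by -0.62 ± 0.13, adjusted p = 0.0466. FASN lost its call without combination replicate 1 (adjusted p 0.212), combination replicate 2 (0.232), decitabine replicate 1 (0.0642), decitabine replicate 2 (0.0657), RG3039 replicate 1 (0.210), RG3039 replicate 2 (0.154) and DMSO replicate 2 (0.0508), and also with quantile normalisation, no filter on low values, no mean-variance trend and only the compared groups in the fit, over a range of 0.0346 to 0.232 in the 18 alternative settings. The same order of libraries held for DHCR7, IDI1 and FASN. The 2 comparisons share the combination libraries, and DHCR7, FASN and SCD are in both sets.

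**Figure D4:**
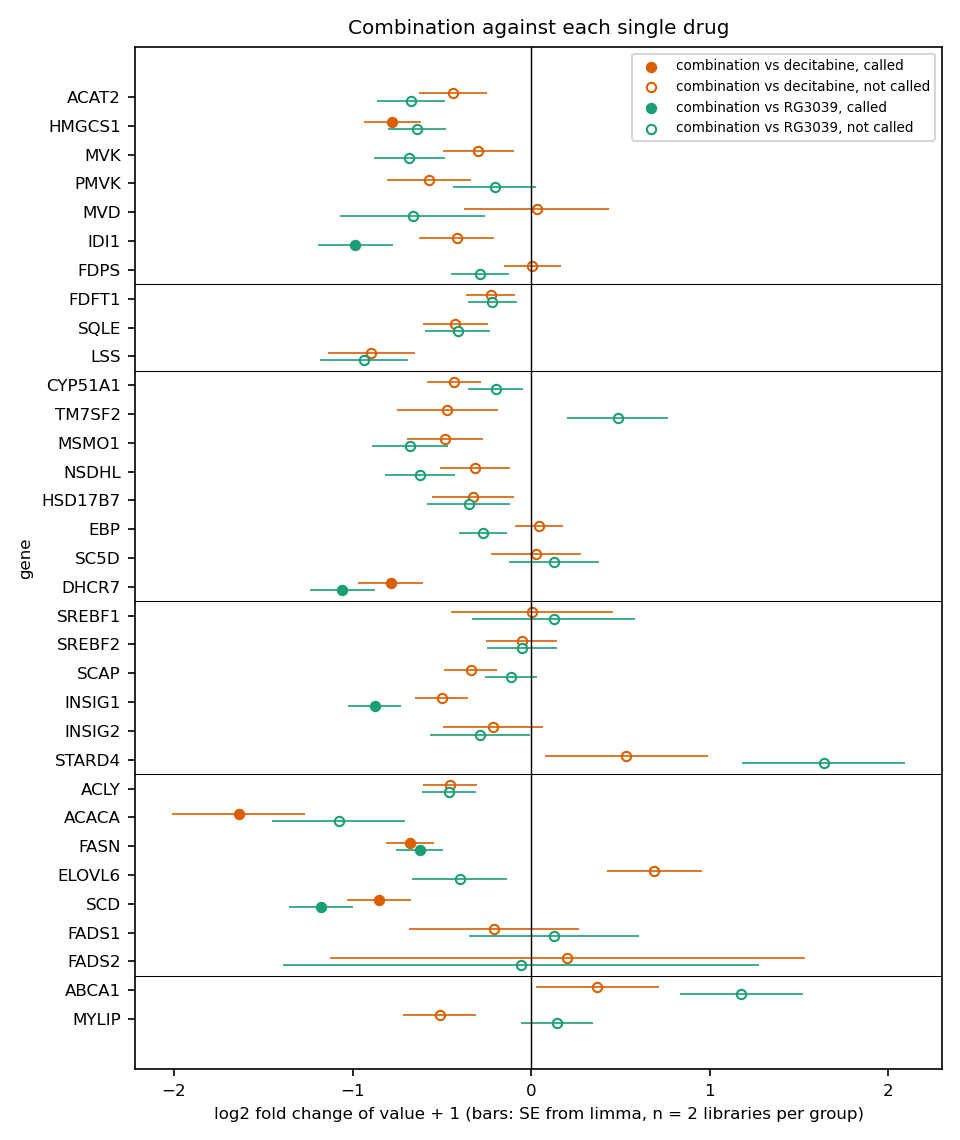
Log2 fold change of value + 1 of the combination against decitabine and against RG3039 (colours) for the 33 genes, filled where called, with limma standard errors as bars (n = 2 libraries per group). The 5 filled points of each comparison all lie left of 0.

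RG3039 against decitabine gave 0 calls among the 33 genes in limma, with 4.60% of all tested genes called (1.92% higher and 2.67% lower). Both RG3039 libraries lay above both decitabine libraries for 11 genes (23.8% of all tested genes) and below them for 9 (24.5% of all). At an unadjusted p under 0.05 in limma, 4 genes were higher and 4 lower, against 3291 of all 17534 tested genes in either direction. ELOVL6 came nearest to a call, with 636 and 886 under RG3039 and 274 and 454 under decitabine. Both RG3039 libraries lie above both decitabine libraries. The change was 1.09 ± 0.27, adjusted p = 0.0519, and it was called in 5 of the 18 alternative settings.

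The combination was also set against the sum of the single-drug changes, by the interaction (combination minus decitabine) minus (RG3039 minus DMSO). No gene was called, neither among the 33 nor among all 17534 in limma, and 1014 of all genes had an unadjusted p under 0.05. Among the 33, 3 were below 0 and 0 above it at an unadjusted p under 0.05: MVK (-0.84 ± 0.28), HMGCS1 (-0.62 ± 0.23) and NSDHL (-0.72 ± 0.28), each at an adjusted p of 0.854. Point estimates lay below 0 for 24 of the 33. The median standard error of the interaction over all genes was 0.456, against 0.322 for a comparison of 2 groups, so departures from the sum were measured with a wider error.

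In 3 of the 33 genes adding RG3039 went with non-overlapping libraries in opposite directions with and without decitabine, against 3.37% of all tested genes. All 3 lay lower with RG3039 when decitabine was present and higher when it was not. MVK had 535 and 479.6 under the combination, 577 and 669.9 under decitabine, 828 and 797 under RG3039 and 638 and 489 under DMSO. NSDHL had 985 and 921 under the combination, 1082 and 1299 under decitabine, 1439 and 1494 under RG3039 and 1321 and 933 under DMSO, where RG3039 lay above DMSO and the combination below decitabine. INSIG2 had 149.9 and 145 under the combination, 162 and 179.8 under decitabine, 211 and 153 under RG3039 and 119 and 143 under DMSO. INSIG2 was also the 1 gene with such a turn for decitabine (4.03% of all tested genes), below RG3039 in the combination and above DMSO when alone. None of the 3 was called in the interaction, so no departure from the sum was shown for them.

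**Figure D5:**
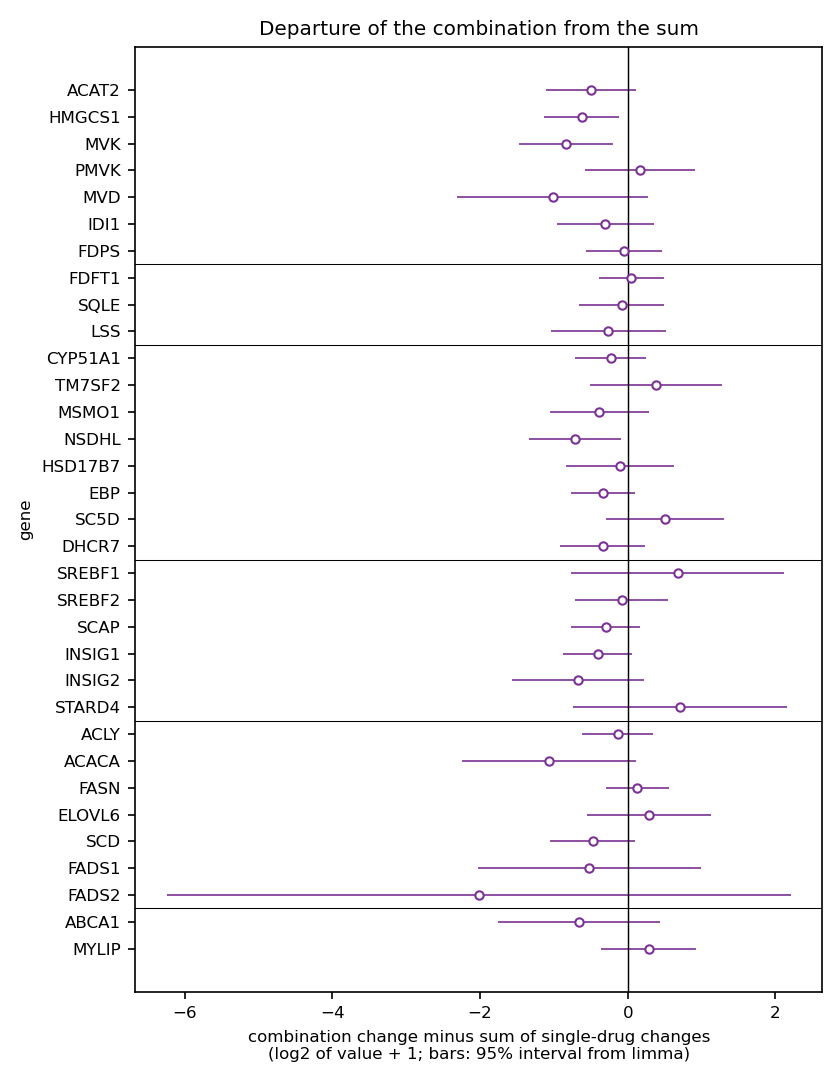
Interaction estimate on the log2 scale (combination change minus the sum of the single-drug changes, horizontal axis) for the 33 genes, with 95% intervals from limma as bars. Points lie left of 0 for 24 genes, and no gene was called.

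Other genes of lipid handling were followed as lists chosen with the same knowledge of the data. Of 24 tested genes of sterol uptake, transport and LXR response, 8 rose and 3 fell with the combination, 3 rose with decitabine, and 4 rose and 4 fell with RG3039. Over all tested genes 24.1% were called with the combination, 2.14% with decitabine and 8.12% with RG3039. PLTP, a phospholipid transfer protein and LXR target, had 271 and 297 under the combination, 146 and 191 under decitabine, 95.4 and 97.1 under RG3039 and 47.7 and 40.8 under DMSO. Every treated library lies above both DMSO libraries. The change of PLTP with the combination was 2.66 ± 0.30 (limma adjusted p = 0.000347). ABCA7, a lipid exporter related to ABCA1, had 439 and 410.2 under the combination, 231 and 232 under decitabine, 251 and 303 under RG3039 and 83.3 and 109 under DMSO, and changed by 2.14 ± 0.25 (adjusted p = 0.000414). LPCAT3, an LXR target that remodels phospholipids, fell with RG3039 by 1.56 on the log2 scale (SE 0.26, limma adjusted p = 0.00756). It had 380 and 331 under the combination, 594 and 614 under decitabine, 407 and 264 under RG3039 and 799 and 1171 under DMSO. Every treated library of LPCAT3 lies below both DMSO libraries.

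Of 30 other lipid synthesis genes 2 rose and 6 fell with the combination, around a median of 0.13, a share near the 24.1% of all tested genes called. ACSS2, which makes acetyl-CoA from acetate, had 172 and 162 under the combination, 129.7 and 169.5 under decitabine, 418 and 218 under RG3039 and 92.1 and 118 under DMSO, and rose with RG3039 (1.53 ± 0.35, limma adjusted p = 0.0280). HSD17B12 fell with RG3039 (-0.78 ± 0.20, adjusted p = 0.0444). With the combination HACD3 fell (-1.15 ± 0.16, adjusted p = 0.00105), as did ACSL5 (-1.44 ± 0.23, adjusted p = 0.00195). Of 13 genes of SREBP processing and sterol-triggered degradation 3 fell with the combination, where 12.7% of all tested genes were called lower. UBE2G2, a ubiquitin-conjugating enzyme of that degradation route, had 1977 and 1823 under the combination, 3582 and 3231 under decitabine, 2498 and 2375 under RG3039 and 4206 and 4186 under DMSO. Both combination libraries were the lowest of the 8, and its change was -1.14 ± 0.14 (adjusted p = 0.000465). Of 21 genes of fatty acid oxidation 4 fell with the combination and 0 rose. Over all tested genes 24.1% were called (12.7% lower and 11.4% higher). At an unadjusted p under 0.05 in limma, 6 of the 21 were lower and 3 higher. Macrophage lipid markers gave 4 higher and 2 lower of 7 tested with the combination, against 11.4% and 12.7% of all tested genes. ITGAX had 651 and 501 under the combination and 81.9 and 56.7 under DMSO (3.05 ± 0.28, limma adjusted p = 0.000158). FABP5 fell, with 2448 and 2606 against 7747 and 7969 (-1.64 ± 0.13, adjusted p = 6.25e-05). CD14 rose with RG3039 (1.67 ± 0.24, adjusted p = 0.00320). FABP4 was at 0 in all libraries, and the scavenger receptor genes MSR1 and MRC1 were at or near 0.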

How the data were processed

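RNA was measured in 8 libraries in 4 groups of 2, grouped by the treatment in the labels. Per gene, the authors deposited a normalised read count (a signal, not a raw count) made from QuantSeq 3′ libraries read single-end over 50 bases. The sources used here do not say whether counting used the strand. The submitters' processing notes name Salmon 1.2.1, STAR, featureCounts, DESeq2, limma and hg38, without tying a step to the values. Whole reads, within a tolerance of 0.02, came out for 74.4% to 80.8% of low values, so no count test was run. This share was 97.5% to 98.1% for genes with 1 annotated transcript and 32.4% to 43.1% for genes with 5 or more. Genes with a mean of at least 10 were tested on log2(value + 1), where low genes show less than their true change. One limma 3.58.1 model (R 4.3.3) with a mean per group and the mean-variance trend gave 4 residual and 5.51 prior degrees of freedom. Tests were two-sided, with Benjamini-Hochberg adjustment within each of 7 contrasts, and were tested on simulated data.

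The members, lists and alternatives were chosen with earlier results of these data known. Every member that passed is named, with values per library where it was called in at least 1 contrast. Of the other lists, at most the 2 genes with the smallest p among those called are named, for RG3039 and for the combination against DMSO. Outside this rule, markers at or near 0 and the markers CD79A, EPCAM, COL1A1 and FCGR1A are named. MVK, NSDHL, INSIG2, ELOVL6, FADS2 and those markers are given after their values were seen. Alternatives were TMM and quantile scaling, pseudocounts of 0.5 and 5, no filter, a mean of at least 50, eBayes without the trend or robust, a fit of the compared groups alone, a replicate block, and leaving out each library. Loci and overlaps came from GENCODE 29, promoters from RefSeq on GRCh38.p14. Python 3.11.15, pandas 2.3.3, numpy 2.4.6 and matplotlib 3.10.9 were used.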

Additional observations from a re-analysis of the deposited data

How the results depend on the processing

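No called gene turned direction under any of the 18 alternatives tried, and of the 31 calls over 5 comparisons 7 were kept in every one, all for the combination against DMSO. Members called with the combination against DMSO were 17, and 9 without the mean-variance trend. Over all tested genes 24.1% and 16.2% were called in those fits. Percentages after the counts below are the share of all tested genes called in the same fit. For decitabine against DMSO members called were 2 (2.14%), and 0 with quantile normalisation (1.87%). They were 1 with no filter (0.717%), 1 without the trend (1.2%) and 0 with only the compared groups (0.787%). For RG3039 against DMSO they were 2 (8.12%), and 1 with quantile normalisation (7.83%). They were 1 with no filter (3.23%), 0 without the trend (4.09%) and 1 with only the compared groups (4.61%). For the combination against decitabine they were 5 (7.33%), and 0 without the trend (2.46%). For the combination against RG3039 they were 5 (2.28%), and 3 with no filter (0.679%). They were 0 without the trend (0.838%) and 3 with only the compared groups (2.42%). For RG3039 against decitabine they were 0 (4.6%). They were 1, ELOVL6, with a pseudocount of 5 (5.06%), a mean of at least 50 (6.16%) or robust estimates (5.17%). All of these counts are from limma. The synthesis minus efflux change for decitabine was -0.78 with quantile normalisation. Leaving out 1 library, chosen after seeing the data, gave -1.49 to -1.11 for the combination, -1.17 to -0.80 for decitabine and -0.35 to 0.027 for RG3039, which turned sign without RG3039 replicate 1 (0.0061) and DMSO replicate 1 (0.027). The synthesis mean in these values includes FADS2, which was near the limit for testing. Leaving out 1 library gave 8 to 16 for the combination against DMSO, 0 to 2 for decitabine, 0 to 1 for RG3039, 0 to 5 for the combination against decitabine, 0 to 4 against RG3039 and 0 to 1 for RG3039 against decitabine.

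The replicate numbers are not said to pair the wells, and deviations of same-numbered libraries correlated at -0.077 to 0.161. With the replicate block members called were 3 for decitabine, 3 for RG3039 and 17 for the combination against DMSO. Over all tested genes 2.99%, 9.64% and 26.3% were called with the block, against 2.14%, 8.12% and 24.1% in the main fit. Members called with the block were 5 for the combination against each single drug, and 1 for RG3039 against decitabine. Over all tested genes the shares were 9.57% for the combination against decitabine, 3.92% against RG3039, and 5.55% for RG3039 against decitabine.

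Over all genes, calls without the trend were 210 against 376 for decitabine, 718 against 1424 for RG3039, 432 against 1286 for the combination over decitabine, 147 against 399 over RG3039, and 427 against 806 for RG3039 over decitabine. With no filter they were 225 for decitabine and 213 for the combination over RG3039. With only the compared groups they were 138 for decitabine and 807 for RG3039, and with the block 688 for the combination over RG3039. Without 1 library, calls over all genes ran over 2133 to 4075 for the combination against DMSO (4221 with all 8), 79 to 495 for decitabine, 520 to 1263 for RG3039, 305 to 1391 for the combination over decitabine, 21 to 454 over RG3039 and 283 to 887 for RG3039 over decitabine. With 2 libraries per group, low genes such as ABCG1 and FADS2 are not resolved at this depth.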
